A study of Homo sapiens with 6 samples.

Results

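The septins are a family of GTP-binding cytoskeletal proteins, and 8 of their genes were followed here in QBC-939, a cell line labelled as cholangiocarcinoma, a cancer of the bile duct. The deposited table holds 27238 rows, and its septin symbols appear as calendar dates, the form spreadsheet software gives them, so that SEPT2 is stored as 2-Sep. The 8 members were the rows 2-Sep, 3-Sep, 6-Sep, 7-Sep, 8-Sep, 9-Sep, 10-Sep and 11-Sep, read as SEPT2, SEPT3, SEPT6, SEPT7, SEPT8, SEPT9, SEPT10 and SEPT11 (now named SEPTIN2 to SEPTIN11). Each name occurred once. In all, 12 rows carried a September date, and 10 of them matched the number range of 2 to 11; SEPT4 and SEPT5 matched it too but are not among the members and are given by level only. The knockdown cells had received an shRNA against BMI1, a RING finger subunit of Polycomb repressive complex 1, and the control cells a scrambled shRNA, each for 48 h, with 3 libraries per group described as independent transfections. The control reagent is called an shRNA in one label and an siRNA in another. The comparison asks how the mRNA profile differs when BMI1 is lowered. RNA selected for poly(A) tails was sequenced from both ends. Levels are in FPKM, fragment counts scaled by transcript length and by the library's mapped total, so those of different septins are set side by side. That scaling does not cover the GC content of the transcripts, and its part in the order of septin levels was not tested.

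Septins assemble into rods in which members of different groups take fixed places, and the rods join end to end into filaments and rings on membranes, actin and microtubules. The family has 4 groups, named after SEPT2, SEPT3, SEPT6 and SEPT7; members of a group can stand in for each other, and SEPT7 is the sole member of its group. Rods that include SEPT9 have it at their centre, next to SEPT7, then a SEPT6 group member, with a SEPT2 group member at the ends. In dividing epithelial cells septins gather at the cleavage furrow and midbody, where they work with anillin and myosin, and outside division they act as diffusion barriers and scaffolds.

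The 4 septins with the smallest adjusted p were SEPT10, SEPT7, SEPT2 and SEPT9, of which the first 3 rose and SEPT9 fell. The 250 bases upstream of 1 RefSeq start site of each are shown because these members moved together or in opposite directions. The sequences are from RefSeq (GRCh38.p14), 5′ to 3′ on the gene's strand, each for the tabled start nearest the gene's start in GENCODE 29. The 2 sources place the starts differently. By the GENCODE 29 positions the SEPT2 and SEPT9 windows lay wholly inside the gene, and the SEPT7 and SEPT10 windows partly inside it. Capitals mark matches on either strand to 5 motifs, with overlapping matches run together. The GC box was searched as GGGCGG. The CCAAT box was searched by the letters of its name. The E box was searched as CACGTG. The TATA box was searched as TATAAA. The ETS core was searched as CCGGAAG.
SEPT2 (chr2:241315105-241315354, forward strand): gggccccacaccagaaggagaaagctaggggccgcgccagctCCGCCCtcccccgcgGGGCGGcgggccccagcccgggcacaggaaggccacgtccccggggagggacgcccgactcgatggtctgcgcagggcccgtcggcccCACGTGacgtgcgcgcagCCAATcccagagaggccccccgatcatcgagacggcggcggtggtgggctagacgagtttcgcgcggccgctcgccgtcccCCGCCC
SEPT7 (chr7:35800736-35800985, forward strand): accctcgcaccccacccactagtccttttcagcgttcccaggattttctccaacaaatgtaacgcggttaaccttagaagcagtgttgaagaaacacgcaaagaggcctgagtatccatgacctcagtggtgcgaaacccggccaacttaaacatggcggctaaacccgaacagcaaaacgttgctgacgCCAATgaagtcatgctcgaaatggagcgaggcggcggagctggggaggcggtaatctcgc
SEPT10 (chr2:109613967-109614216, reverse strand): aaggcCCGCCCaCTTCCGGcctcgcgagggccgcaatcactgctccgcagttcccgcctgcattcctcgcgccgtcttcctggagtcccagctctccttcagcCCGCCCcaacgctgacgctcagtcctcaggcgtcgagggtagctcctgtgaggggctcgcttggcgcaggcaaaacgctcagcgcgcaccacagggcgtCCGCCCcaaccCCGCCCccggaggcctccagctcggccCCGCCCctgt
SEPT9 (chr17:77281249-77281498, forward strand): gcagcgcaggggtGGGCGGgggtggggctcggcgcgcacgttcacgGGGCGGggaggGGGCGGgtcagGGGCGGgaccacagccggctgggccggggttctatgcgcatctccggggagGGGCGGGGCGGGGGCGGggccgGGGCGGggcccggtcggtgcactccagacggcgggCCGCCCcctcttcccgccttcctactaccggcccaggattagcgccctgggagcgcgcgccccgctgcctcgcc
The SEPT9 window held 9 GC box matches, the SEPT10 window 5, the SEPT2 window 3 and the SEPT7 window 0. Of the windows not shown, that of SEPT11, which rose, held 3. Those of SEPT6 and SEPT8, whose adjusted p was not under 0.05, held 3 and 0. The SEPT8 window, chr5:132778013-132778262, lay well inside the gene's GENCODE 29 span (chr5:132750817-132807241, reverse strand). Its letters are therefore not those next to the GENCODE start. A GC box was present in 42.6% of all 35116 tabled windows of this length. The SEPT2 and SEPT7 windows each had 1 CCAAT box, found in 32.0% of all windows. SEPT2 also had 1 E box (6.34% of all windows) and SEPT10 had 1 ETS core (8.52%). None of the 4 windows shown had a TATA box (10.7% of all windows). The windows were 76.4% GC for SEPT2, 53.6% for SEPT7, 71.2% for SEPT10 and 80.4% for SEPT9, against a median of 58.0% over all windows. SEPT9 has 10 tabled starts and SEPT2 and SEPT7 have 3 each, and the table of FPKM does not say which was used. A match describes these letters and is not a measured binding site.

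Some facts of the libraries bear on every value below. BMI1 measured 1.49, 1.19 and 2.65 FPKM in the Bmi1 shRNA libraries, against 6.65, 5.34 and 6.09 FPKM in the control libraries (log2 fold change -1.37, SE 0.19; limma, adjusted p = 0.00162; exact two-sided permutation p = 0.1, and this design allows none lower). Summed FPKM ran from 352800 to 360371 in the Bmi1 shRNA libraries and from 332910 to 341268 in the control libraries, while read depth is unknown, so no counting interval is given. The simple epithelial keratins that go with a bile duct origin were present, with KRT19 at 211 ± 14.2 FPKM in Bmi1 shRNA cells and 287 ± 6.98 FPKM in control cells (SD, n = 3 each), while KRT7 stood at 2.80 ± 0.695 FPKM in Bmi1 shRNA cells and 2.74 ± 0.0356 FPKM in control cells (SD, n = 3 each). Of 6 adipocyte markers, listed because the extraction text names adipose material, 2 had a usable row, and their summed level was 1.23 to 1.37 FPKM in Bmi1 shRNA libraries and 1.57 to 1.98 FPKM in control libraries. The 2 fibroblast markers with a row summed to 0.357 to 0.445 FPKM in Bmi1 shRNA libraries and 0.397 to 0.416 FPKM in control libraries. The 3 leukocyte markers with a row summed to 7.73 to 9.27 FPKM in Bmi1 shRNA libraries and at least 11.8 FPKM in each control library, and 4 hepatocyte markers to 228 to 240 FPKM in Bmi1 shRNA libraries and 156 to 166 FPKM in control libraries. CD68 made up most of the leukocyte sum, at 7.53 ± 0.812 FPKM in Bmi1 shRNA cells and 11.5 ± 0.449 FPKM in control cells (SD, n = 3 each). SERPINA1 made up most of the hepatocyte sum, at 215 ± 5.07 FPKM in Bmi1 shRNA cells and 156 ± 4.99 FPKM in control cells (SD, n = 3 each), followed by TTR, while APOA1 never exceeded 0.283 FPKM and CYP3A4 never exceeded 0.0287 FPKM. No row of the whole table was at 0 in all 6 libraries, so the same holds for every marker with a row. Whether the markers without a row were undetected is not known. The part of the marker differences in the septin changes was not tested. In bulk RNA, fewer cells with a transcript and less of it per cell cannot be told apart.

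With Bmi1 shRNA, 5 septins rose, 1 fell and 2 did not pass the test. The risers were SEPT7, SEPT2, SEPT10, SEPT11 and SEPT3, and the septin that fell was SEPT9, the most abundant of the family. All 8 passed the filter of a mean of at least 1 FPKM. The test was limma on log2(FPKM + 1) over 11016 rows, and a gene was called where its p, adjusted by Benjamini and Hochberg's method, was under 0.05. That rule called 6 of the 8 septins, against 57.1% of all tested rows, with 28.6% of rows called higher and 28.5% lower. The groups did not overlap for 7 of the 8, against 65.4% of all tested rows, so the number of septins that moved is read against a transcriptome in which most rows moved. The median log2 fold change was 0.35 over the 8 septins and -0.02 over all tested rows. The number called higher was 3 without Bmi1 shRNA replicate 1 (25.3% of all tested rows), without Bmi1 shRNA replicate 2 (26.0%) and without control replicate 3 (24.7%). The number called lower was 2 without control replicate 1 (26.0% of all tested rows). With the trend of each library with GC content and transcript length removed, 3 septins were called higher and 0 lower, against 19.1% and 20.6% of all rows in that fit.

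**Figure D1:**
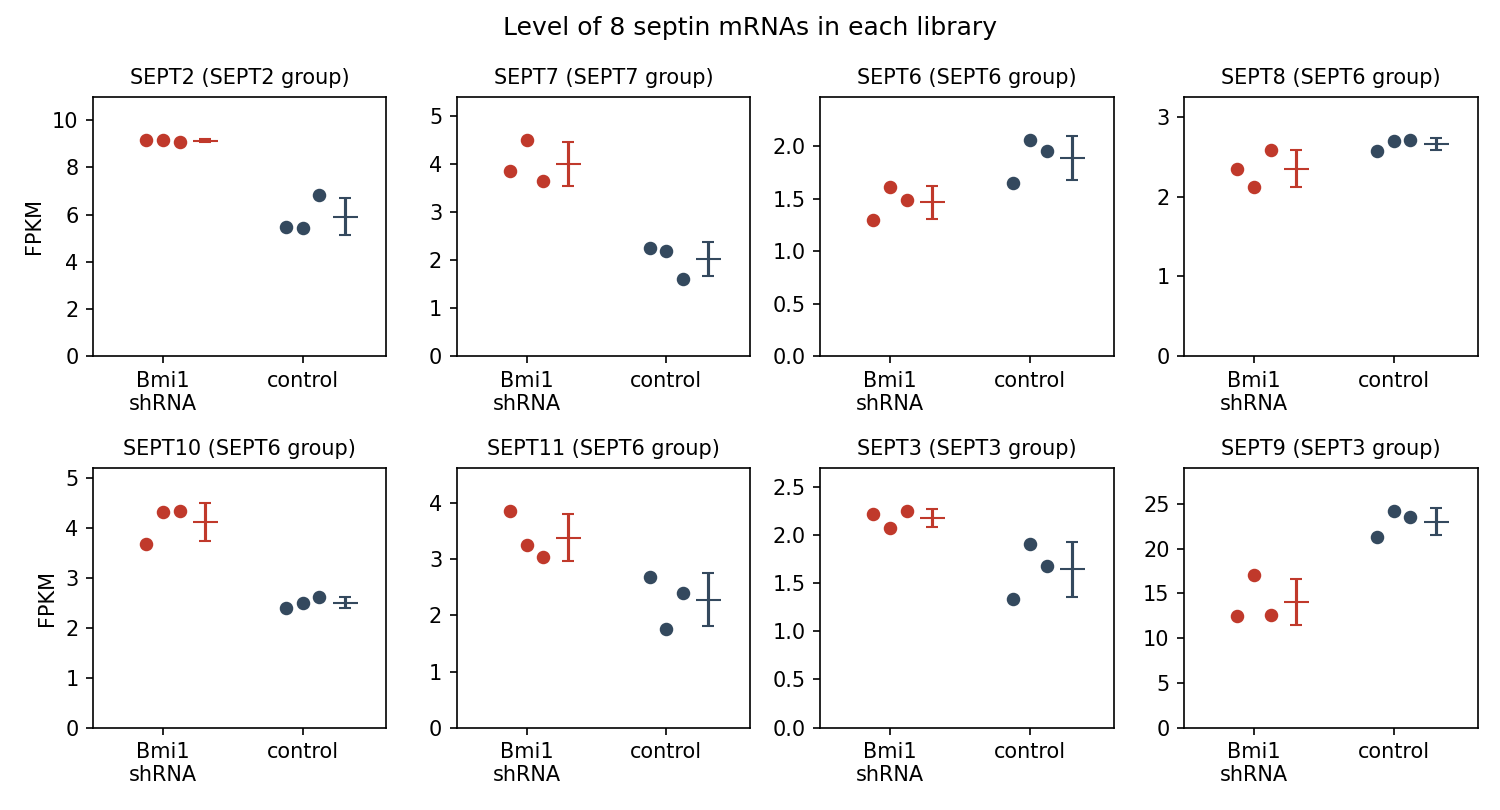
Level of each septin in FPKM (vertical axis, from 0) in the 3 Bmi1 shRNA libraries (red, left) and the 3 control libraries (grey, right); points are libraries and the bar beside them is the mean ± SD. The groups are apart for every septin but SEPT8, and SEPT9, at 12.5 to 17.0 FPKM with Bmi1 shRNA and 21.3 to 24.2 FPKM in control, is on the highest scale.

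SEPT7 is the septin for which no close relative can substitute, since it is alone in its group and part of every rod. It measured 3.85, 4.50 and 3.64 FPKM in the Bmi1 shRNA libraries, against 2.26, 2.18 and 1.61 FPKM in the control libraries. All 3 Bmi1 shRNA libraries lay above all 3 control libraries, with control replicate 3 the lowest of the 6. The ratio of mean FPKM was 1.98, and the log2 fold change on the log2(FPKM + 1) scale was 0.73 with an SE of 0.11 (limma, adjusted p = 0.00223). It was 0.37 with the trend in GC content and length removed (limma, adjusted p = 0.0313). The gene (ENSG00000122545.19) is at chr7:35800932-35907105, forward strand, in GRCh38.

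Pseudogenes derived from SEPT7 share stretches of sequence with it, so its row was checked for them. Of the 50-base words of its longest protein-coding transcript, 7.29% were also found in transcripts of other genes, among them SEPT7P2 with 2.07%. SEPT7P2, a transcribed pseudogene elsewhere on chromosome 7, measured 2.06, 1.87 and 2.13 FPKM in the Bmi1 shRNA libraries, against 1.59, 1.97 and 1.80 FPKM in the control libraries, and was not called (log2 fold change 0.12, SE 0.08; limma, adjusted p = 0.224). The sum of both rows was 6.02 ± 0.313 FPKM in Bmi1 shRNA cells and 3.80 ± 0.373 FPKM in control cells (SD, n = 3 each), with no overlap between the groups. The sources used here do not say how fragments from the shared stretches were assigned. The antisense row SEPT7-AS1, which begins next to SEPT7 on the other strand, stayed at 0.0685 to 0.0838 FPKM in Bmi1 shRNA libraries and 0.0631 to 0.0951 FPKM in control libraries.

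SEPT2 occupies the ends of the rods and is also known for its place on the cleavage furrow and at the base of the primary cilium. It stood at 9.16, 9.14 and 9.05 FPKM in the Bmi1 shRNA libraries, against 5.46, 5.45 and 6.81 FPKM in the control libraries. The Bmi1 shRNA libraries differed from each other by far less than they differed from any control library. The ratio of means was 1.54 and the log2 fold change 0.56 with an SE of 0.09 (limma, adjusted p = 0.00243). SEPT2 (ENSG00000168385.17) is at chr2:241315100-241354027, forward strand, and 3.94% of its 50-base words also occur in transcripts of the adjoining gene HDLBP. The other members of its group were close to the bottom of the scale: SEPT1 had 0.319 to 0.432 FPKM in Bmi1 shRNA libraries and 0.299 to 0.578 FPKM in control libraries, SEPT5 never exceeded 0.202 FPKM, and SEPT4 never exceeded 0.0228 FPKM. SEPT2 was thus the only member of the SEPT2 group above 1 FPKM in any of the 6 libraries.

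Within the SEPT6 group, whose members take the place between SEPT2 and SEPT7, SEPT10 and SEPT11 rose, while SEPT6 and SEPT8 did not pass the test. SEPT10 measured 3.68, 4.33 and 4.34 FPKM in the Bmi1 shRNA libraries, against 2.39, 2.50 and 2.61 FPKM in the control libraries. The groups were well apart, with a ratio of means of 1.65 and a log2 fold change of 0.55 with an SE of 0.07 (limma, adjusted p = 0.00151). The call was lost with the trend in GC content and length removed (log2 fold change 0.20; limma, adjusted p = 0.0713). SEPT10 (ENSG00000186522.14, chr2:109542982-109614206, reverse strand) shares 8.81% of its 50-base words with its pseudogene SEPT10P1, whose row never exceeded 0.227 FPKM.

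SEPT11, a septin also known from the neck of dendritic spines, measured 3.86, 3.25 and 3.05 FPKM in the Bmi1 shRNA libraries, against 2.69, 1.76 and 2.40 FPKM in the control libraries. The groups did not overlap, but the lowest Bmi1 shRNA library was close to the highest control library. The log2 fold change was 0.42 with an SE of 0.13 (limma, adjusted p = 0.0285), and the ratio of means was 1.48. The call was lost without control replicate 2 or 3 or without Bmi1 shRNA replicate 1 or 2 (limma, adjusted p = 0.0605, 0.0554, 0.0855 and 0.0591), with no filter on low values (adjusted p = 0.0749) and with the trend in GC content and length removed (log2 fold change 0.25, adjusted p = 0.193). SEPT11 (ENSG00000138758.11) is at chr4:76949703-77040384, forward strand.

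SEPT6 gave 1.30, 1.61 and 1.49 FPKM in the Bmi1 shRNA libraries, against 1.65, 2.06 and 1.95 FPKM in the control libraries. The groups came within a small step of each other, between Bmi1 shRNA replicate 2 and control replicate 1. The log2 fold change was -0.23 with an SE of 0.08 (limma, adjusted p = 0.0562), so SEPT6 was just short of the threshold. It was called lower with libraries scaled to one total (adjusted p = 0.0327), to one upper quartile (0.0363) or by quantiles (0.0233), and without control replicate 1 (0.0367). Without any other single library it was not called (limma, adjusted p from 0.0588 to 0.159). With the trend in GC content and length removed its log2 fold change was -0.02 (limma, adjusted p = 0.860). SEPT8, which in neurons is found at synaptic vesicles, gave 2.35, 2.12 and 2.58 FPKM in the Bmi1 shRNA libraries, against 2.57, 2.70 and 2.71 FPKM in the control libraries. Its groups overlapped, and its log2 fold change was -0.13 with an SE of 0.07 (limma, adjusted p = 0.159). With quantile normalization SEPT8 was called lower (limma, adjusted p = 0.0490). With the trend in GC content and length removed its value turned to 0.15 and was not called (limma, adjusted p = 0.0586). Both are on the reverse strand, SEPT6 (ENSG00000125354.22) at chrX:119615724-119693370 and SEPT8 (ENSG00000164402.13) at chr5:132750817-132807241.

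The shares of the SEPT6 group's members in its summed level differed between the conditions for SEPT10, SEPT8 and SEPT6, with no overlap, and overlapped for SEPT11. The 4 genes together gave 11.3 ± 0.133 FPKM in Bmi1 shRNA cells and 9.33 ± 0.324 FPKM in control cells (SD, n = 3 each). SEPT10 made up 32.9%, 38.3% and 37.9% of that sum in the Bmi1 shRNA libraries, against 25.7%, 27.8% and 27.0% in the control libraries. SEPT8 made up 21.0%, 18.7% and 22.5% in the Bmi1 shRNA libraries, against 27.6%, 29.9% and 28.0% in the control libraries. SEPT11 made up 29.9% ± 4.10 in Bmi1 shRNA cells and 24.4% ± 4.74 in control cells, and SEPT6 12.9% ± 1.31 in Bmi1 shRNA cells and 20.2% ± 2.54 in control cells (SD, n = 3 each). By mean SEPT10 was the most abundant member in Bmi1 shRNA cells and SEPT8 in control cells, but SEPT11 was the highest in replicate 1 of each group. The ratio of SEPT10 to SEPT8 was 1.57, 2.04 and 1.68 in the Bmi1 shRNA libraries and 0.929, 0.928 and 0.964 in the control libraries. These shares and ratios are a description of the deposited FPKM and were not tested. With the trend in GC content and length removed, the log2 fold changes of SEPT10 and SEPT8 were 0.20 and 0.15, against 0.55 and -0.13 as deposited.

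In the SEPT3 group the members moved in opposite directions. SEPT9, which sits at the centre of the longer rods, binds microtubules and bundles actin, was the septin with the highest level in every library. It measured 12.5, 17.0 and 12.6 FPKM in the Bmi1 shRNA libraries, against 21.3, 24.2 and 23.5 FPKM in the control libraries. The groups did not overlap, and Bmi1 shRNA replicate 2 was nearest the control libraries. Mean FPKM in Bmi1 shRNA cells was 61.0% of that in control cells, and the log2 fold change was -0.69 with an SE of 0.13 (limma, adjusted p = 0.00428). With the trend in GC content and length removed it was not called (log2 fold change -0.34; limma, adjusted p = 0.104). None of its 50-base words occurred in transcripts of another gene. SEPT9 (ENSG00000184640.17) is at chr17:77280569-77500596, forward strand.

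SEPT3, best known as a neuronal septin, was low but present. It gave 2.22, 2.07 and 2.25 FPKM in the Bmi1 shRNA libraries, against 1.34, 1.91 and 1.68 FPKM in the control libraries. The Bmi1 shRNA libraries were close together and above the more widely spread control libraries, with a log2 fold change of 0.27 and an SE of 0.09 (limma, adjusted p = 0.0441), and 0.55 with the trend in GC content and length removed (adjusted p = 0.00293). The call was close to the threshold: it was lost without control replicate 1 or 3 or without any 1 of the 3 Bmi1 shRNA replicates (adjusted p up to 0.106), with no filter on low values (0.105) and with libraries scaled to one total (0.112), to one upper quartile (0.0507) or by quantiles (0.0746). SEPT3 (ENSG00000100167.20) is at chr22:41969475-41998221, forward strand. SEPT12, a testis septin of the same group, was listed at 0 in 5 of the 6 libraries.

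The order of levels changed below the top of the family. SEPT9 and SEPT2 were first and second in both groups, each clear of the next gene in all libraries. In Bmi1 shRNA cells SEPT10 (3.68 to 4.34 FPKM), SEPT7 (3.64 to 4.50 FPKM) and SEPT11 (3.05 to 3.86 FPKM) followed in order of their means, and neighbours among these 3 overlapped. SEPT8 and SEPT3, at 2.35 ± 0.230 and 2.18 ± 0.0971 FPKM, overlapped each other, and SEPT6 was last at 1.46 ± 0.156 FPKM (SD, n = 3 each). In control cells the 6 genes from SEPT8, at 2.66 ± 0.0784 FPKM, to SEPT3, at 1.64 ± 0.290 FPKM (SD, n = 3 each), overlapped from each one to the next. SEPT7 took the fourth place in Bmi1 shRNA cells and the sixth in control cells. Set against all tested rows, 80.3% had a lower mean than SEPT9, 60.0% a lower mean than SEPT2 and 15.3% a lower mean than SEPT6, so all septins but SEPT9 and SEPT2 were in the lower part of the range.

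The 8 septins together came to 38.9, 44.0 and 39.0 FPKM in the Bmi1 shRNA libraries, against 39.6, 42.8 and 43.3 FPKM in the control libraries, and these sums overlapped. SEPT9 supplied 32.1%, 38.7% and 32.3% of the sum in the Bmi1 shRNA libraries, against 53.7%, 56.6% and 54.3% in the control libraries. Without SEPT9, the other 7 septins summed to 26.6 ± 0.354 FPKM in Bmi1 shRNA cells and 18.9 ± 0.765 FPKM in control cells (SD, n = 3 each). The ratio of SEPT9 to SEPT7, neighbours at the centre of the rod, was 3.24, 3.78 and 3.47 in the Bmi1 shRNA libraries and 9.43, 11.1 and 14.6 in the control libraries. The ratio of SEPT2 to SEPT7 was 2.38, 2.03 and 2.49 in the Bmi1 shRNA libraries and 2.42, 2.50 and 4.23 in the control libraries, which overlapped. These are ratios of deposited mRNA levels, and protein was not measured. SEPT9 and SEPT7 differ in GC content (60.1% and 39.3%). With the trend in GC content and length removed, their log2 fold changes were -0.34 and 0.37, against -0.69 and 0.73 as deposited.

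**Figure D2:**
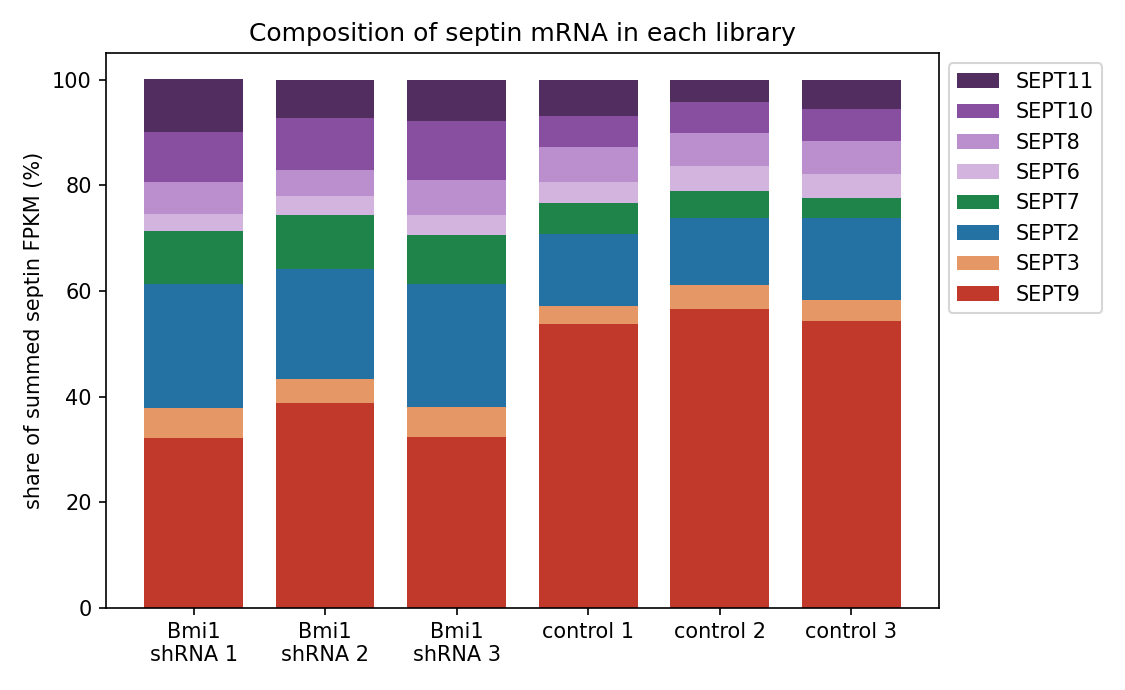
Share of each septin in the summed FPKM of the 8 septins, as deposited (vertical axis, percent), in each of the 3 Bmi1 shRNA libraries (left) and 3 control libraries (right). SEPT9 takes 32.1% to 38.7% of the bar in Bmi1 shRNA libraries and 53.7% to 56.6% in control libraries, with SEPT2, SEPT7 and SEPT10 taking larger parts in the Bmi1 shRNA libraries.

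Changes across the table went with the GC content of the transcripts, and the septins spread over much of that range. The risers SEPT7, SEPT10, SEPT11 and SEPT2 had transcripts of 39.3%, 40.8%, 41.7% and 44.3% GC, and SEPT9, which fell, one of 60.1%; SEPT6, SEPT3 and SEPT8 were at 48.0%, 50.1% and 50.5%. The median over tested rows was 50.4%. Among the 652 tested rows within 1 percentage point of the GC content of SEPT7, 66.0% were called higher and the median log2 fold change was 0.41. Among the 660 rows near SEPT9 in GC content, 48.3% were called lower and the median was -0.23. For SEPT10 and SEPT11, with log2 fold changes of 0.55 and 0.42, the rows of like GC content had medians of 0.37 and 0.32. Of those rows, 61.4% and 57.2% were called higher. For SEPT2 the rows of like GC content had a median of 0.12 with 36.3% called higher, and for SEPT3 a median of -0.16 with 15.1% called higher.

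**Figure D3:**
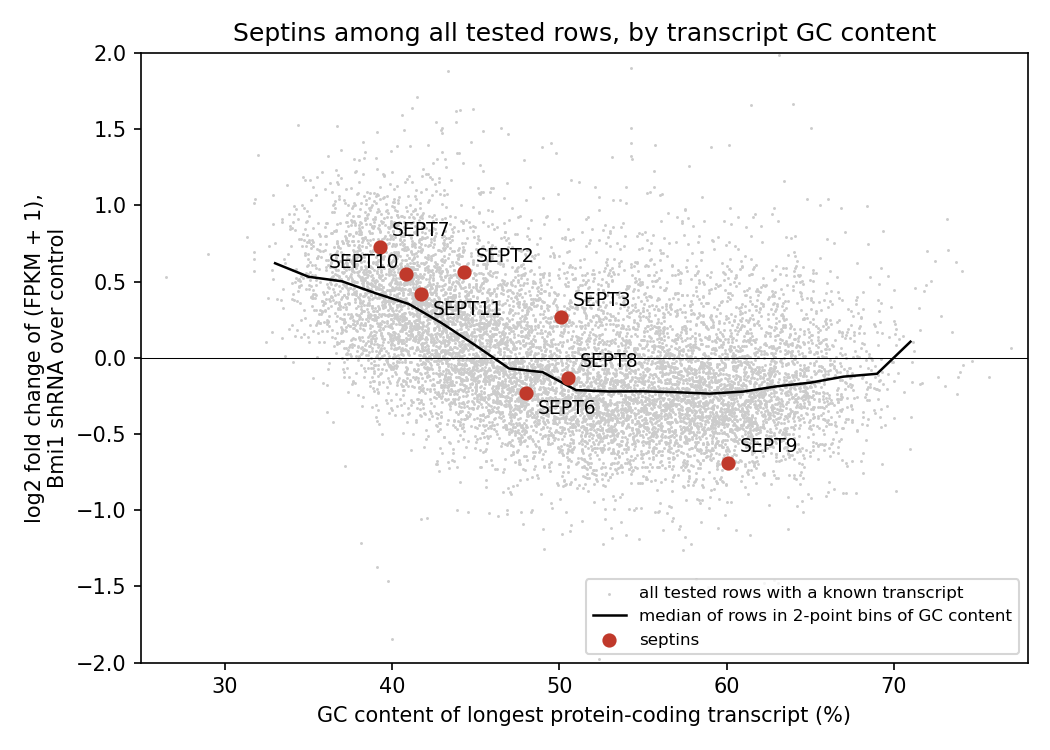
Log2 fold change of (FPKM + 1), Bmi1 shRNA over control, against the GC content of the longest protein-coding transcript; grey points are tested rows, the black line their median in bins 2 percentage points wide, and red points the septins. The vertical axis is limited to 2 either way, and with the horizontal axis it leaves out 17 rows. SEPT7 (0.73), SEPT2 (0.56) and SEPT3 (0.27) lie above the line and SEPT9 (-0.69) below it. SEPT10 (0.55), SEPT11 (0.42) and SEPT8 (-0.13) exceed the medians of rows within 1 percentage point of GC (0.37, 0.32 and -0.19). SEPT6 (-0.23) is under its median (-0.10).

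After the part of each library's values that tracked GC content and transcript length had been subtracted, 3 septins were called higher, SEPT3, SEPT2 and SEPT7, and 0 lower (limma; at an unadjusted p under 0.05 there were 5 higher and 0 lower). In that fit 39.6% of 10269 rows were called, 19.1% higher and 20.6% lower. The value of SEPT2 differed least between the fits, with a log2 fold change of 0.47 and an SE of 0.09 (limma, adjusted p = 0.00883). SEPT7 had 0.37 with an SE of 0.10 (adjusted p = 0.0313), and SEPT3 had 0.55 with an SE of 0.08 (adjusted p = 0.00293), a larger change than in the deposited values. SEPT9 had -0.34 with an SE of 0.14 (adjusted p = 0.104), SEPT10 had 0.20 with an SE of 0.07 (0.0713) and SEPT11 had 0.25 with an SE of 0.13 (0.193), none of them called. SEPT8 turned from a negative to a positive value, 0.15 with an SE of 0.05 (adjusted p = 0.0586), and SEPT6 stood at -0.02 with an SE of 0.08. The subtraction takes out biological differences tied to base composition as well, and the part of GC content in the septin changes was not tested further.

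**Figure D4:**
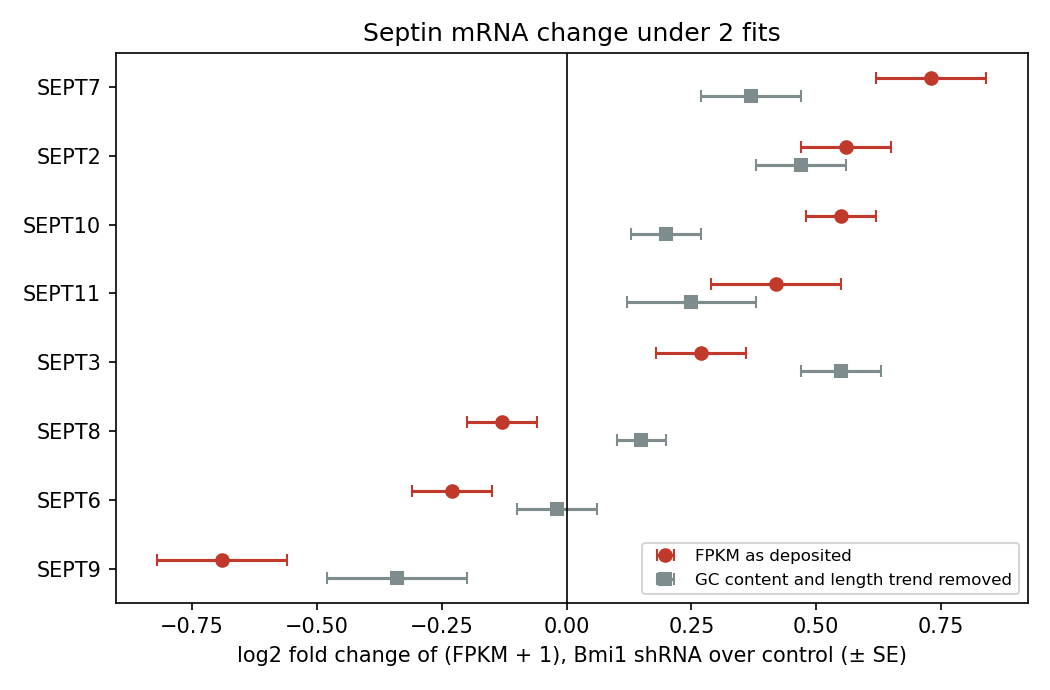
Log2 fold change of (FPKM + 1) for each septin, Bmi1 shRNA over control, with bars of 1 SE, from the deposited FPKM (red circles) and after removal of the GC content and length trend (grey squares). SEPT2, SEPT7, SEPT3, SEPT10 and SEPT11 stay to the right of 0 in both, the last 2 at 0.20 and 0.25 after the removal. SEPT9 is at -0.69 from the deposited values and -0.34 after the removal, and SEPT8 crosses 0.

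Septin assembly is steered by the BORG proteins, effectors of the GTPase CDC42 that bind septins and are encoded by CDC42EP1 to CDC42EP5. Of these 6 genes with CDC42, 1 rose, 3 fell and 2 did not pass (median log2 fold change -0.28, against -0.02 over all tested rows, of which 28.6% rose and 28.5% fell). CDC42EP1 measured 35.5, 40.3 and 42.7 FPKM in the Bmi1 shRNA libraries, against 53.0, 62.0 and 57.4 FPKM in the control libraries (log2 fold change -0.53, SE 0.09; limma, adjusted p = 0.00317). CDC42EP2 fell to 8.50 ± 0.674 FPKM in Bmi1 shRNA cells, against 13.7 ± 1.13 FPKM in control cells, and CDC42EP4 to 6.74 ± 0.195 FPKM in Bmi1 shRNA cells, against 9.40 ± 0.250 FPKM in control cells (SD, n = 3 each; limma, adjusted p = 0.00135 and 0.00115). CDC42EP5 rose, with 10.7, 10.4 and 9.78 FPKM in the Bmi1 shRNA libraries and 5.74, 5.96 and 6.10 FPKM in the control libraries (log2 fold change 0.70, SE 0.06; limma, adjusted p = 0.000372). CDC42EP3 was at 1.87 ± 0.0844 FPKM in Bmi1 shRNA cells and 2.14 ± 0.175 FPKM in control cells, and CDC42 itself at 13.1 ± 1.03 FPKM in Bmi1 shRNA cells and 12.8 ± 0.167 FPKM in control cells (SD, n = 3 each; limma, adjusted p = 0.144 and 0.695). With that trend subtracted, CDC42EP5 was called higher and CDC42EP1, CDC42EP2 and CDC42 lower, while CDC42EP4 was not called (log2 fold change -0.14, SE 0.05; limma, adjusted p = 0.0764).

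Among 9 tested genes for proteins that bind septins or work with them, 3 rose, 5 fell and 1 did not pass (median log2 fold change -0.38), against 28.6% and 28.5% of all tested rows called higher and lower. ARHGEF18, a RhoA exchange factor held inactive by SEPT9 binding, fell to 5.70 ± 0.532 FPKM in Bmi1 shRNA cells, against 9.05 ± 0.523 FPKM in control cells (SD, n = 3 each; limma, adjusted p = 0.00143). SOCS7, an adaptor that links septins to NCK proteins, fell to 20.1 ± 2.27 FPKM in Bmi1 shRNA cells, against 30.1 ± 0.332 FPKM in control cells, and the actin crosslinker FLNA to 29.2 ± 4.47 FPKM in Bmi1 shRNA cells, against 50.2 ± 3.16 FPKM in control cells (SD, n = 3 each; limma, adjusted p = 0.00208 and 0.00200). The RNA-binding protein gene HNRNPA2B1 rose to 74.8 ± 0.608 FPKM in Bmi1 shRNA cells, against 49.0 ± 1.74 FPKM in control cells (SD, n = 3 each; limma, adjusted p = 0.000348). With the trend removed 2 of the list were called higher and 4 lower, against 19.1% and 20.6% of all rows in that fit.

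Genes of the contractile ring and of late cytokinesis, where septins act with anillin, went both ways: of 25 tested, 12 rose, 8 fell and 5 did not pass (median log2 fold change 0.15), against 28.6% of all tested rows higher and 28.5% lower. The number called lower was 4 without Bmi1 shRNA replicate 1 (23.4% of all tested rows), without Bmi1 shRNA replicate 2 (23.9%) or without control replicate 2 (22.5%). It was 3 without control replicate 3 (23.1%) and 4 with no filter on low values (10.8%). ANLN, the anillin scaffold that recruits septins to the furrow, measured 6.07, 5.61 and 5.85 FPKM in the Bmi1 shRNA libraries, against 2.21, 2.77 and 2.16 FPKM in the control libraries (log2 fold change 1.02, SE 0.08; limma, adjusted p = 0.000365). ECT2, which activates RhoA at the furrow, rose to 16.3 ± 0.536 FPKM in Bmi1 shRNA cells, against 6.84 ± 0.933 FPKM in control cells, CEP55 of the midbody to 9.61 ± 0.549 FPKM in Bmi1 shRNA cells, against 4.41 ± 0.262 FPKM in control cells, and the spindle midzone bundler PRC1 to 13.7 ± 0.129 FPKM in Bmi1 shRNA cells, against 7.13 ± 0.473 FPKM in control cells (SD, n = 3 each; limma, adjusted p = 0.000332, 0.00028 and 0.000282). With the trend removed the list held 8 called higher and 3 lower, against 19.1% and 20.6% of all rows.

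The filaments on which septins lie were also measured, and their counts are set against the 28.6% of all tested rows called higher and 28.5% called lower (19.1% and 20.6% with the trend subtracted). Of 11 tested tubulin genes 1 rose and 7 fell (1 and 5 with the trend subtracted). Without control replicate 2, 0 rose (24.9% of all tested rows), and 2 rose without Bmi1 shRNA replicate 3 (27.1%) or with no filter (12.6%). TUBA1C was among those that fell, at 209 ± 3.68 FPKM in Bmi1 shRNA cells and 276 ± 7.64 FPKM in control cells (SD, n = 3 each; limma, adjusted p = 0.000754), and reads can be shared between these near-identical genes. Of 14 genes for actins and actin-binding proteins 2 rose and 6 fell (3 and 5 with the trend subtracted). The number that rose was 1 in 10 of the alternatives. Among these were the fits without Bmi1 shRNA replicate 2 (26.0% of all tested rows) and without control replicate 1 (26.1%), 2 (24.9%) or 3 (24.7%). VCL, which encodes vinculin, was at 5.89 ± 0.745 FPKM in Bmi1 shRNA cells and 10.4 ± 0.283 FPKM in control cells, and TPM1, a tropomyosin, at 5.71 ± 1.04 FPKM in Bmi1 shRNA cells and 3.23 ± 0.0800 FPKM in control cells (SD, n = 3 each; limma, adjusted p = 0.000942 and 0.00317). Of 7 tested subunits of the exocyst, a vesicle-tethering complex, 2 rose, 1 fell and 4 did not pass. Without Bmi1 shRNA replicate 1 (23.4% of all tested rows lower) or without control replicate 1 (26.0%), 2 fell. The same number fell with libraries scaled to one total (33.7%), to one upper quartile (31.7%) or by quantiles (31.0%). EXOC6 rose to 2.22 ± 0.0975 FPKM in Bmi1 shRNA cells, against 1.05 ± 0.140 FPKM in control cells, and EXOC7 fell to 8.63 ± 0.572 FPKM in Bmi1 shRNA cells, against 11.7 ± 0.253 FPKM in control cells (SD, n = 3 each; limma, adjusted p = 0.000796 and 0.00245). With the trend subtracted, 0 exocyst genes were called higher and 1 lower, and neither EXOC6 (limma, adjusted p = 0.116) nor EXOC7 (0.624) was called.

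The genes whose profile lay nearest to that of SEPT7 were found among 5991 other called genes with a unique, annotated symbol, by the Euclidean distance over the 6 libraries of log2(FPKM + 1) minus the control mean. They were KITLG, the ligand of the KIT receptor, and CLDND1, a claudin-domain protein, at a distance of 0.138 each, followed by the pseudogene row SRP9P1 at 0.164. KITLG was at 10.0 ± 1.01 FPKM in Bmi1 shRNA cells and 5.54 ± 0.443 FPKM in control cells (SD, n = 3 each). In these profiles, as in that of SEPT7, Bmi1 shRNA replicate 2 was the highest of the 6 libraries, a likeness that the distance itself selects for. The GC content of KITLG (37.3%) and CLDND1 (38.5%) was near that of SEPT7 (39.3%), while that of SRP9P1 was 45.2%.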

How the data were processed

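The authors deposited 1 table of FPKM values for 6 libraries (3 Bmi1 shRNA, 3 control), used as deposited. The tools named are StringTie 1.3.0, HISAT2 2.0 and Bowtie 0.12.2, per the submitters' processing notes, which give them no roles and name the mouse build mm8 for human cells. The build used is not settled, and whether counting used strand is not stated. Columns Sh1 to Sh3 were taken as Bmi1 shRNA and Sc1 to Sc3 as scrambled control, numbered as in the sample titles. Low values showed no shared step from which whole reads could be recovered (the commonest ratio between libraries covered 3.46% of low rows at best), so depth is unknown. P-values measure the spread between transfections.

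limma 3.58.1 (R 4.3.3) was run on log2(FPKM + 1) over the 11016 rows whose mean reached 1 FPKM, with group as the sole term, a variance trend and Benjamini-Hochberg adjustment over all rows. GC content and length came from the longest protein-coding transcript in GENCODE 29 (93.2% of tested rows matched); the trend was removed by regressing each library's deviation from the row mean on natural splines (5 degrees of freedom each). Repeated words were counted in the same transcripts. Promoter windows matched for 7 of the 8 septins. On simulated data for this comparison, built on 11016 rows with 200 changed, 51% of changes of 0.5 and 80% of changes of 1 (log2) were called. In the measured data 57.1% of tested rows were called. The simulation changed a far smaller share, so its recovery rates do not carry over to this comparison.

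The members and gene lists were chosen with earlier results of these data known. Named genes were BMI1, all 8 septins, every BORG and CDC42 gene, up to 4 genes with the smallest p in each other list, and the 3 called genes nearest SEPT7; markers of cell types are given as sums or examples. Alternatives covered the pseudocount, the filter, scaling, the variance prior, the replicate block, the trend and each library left out. Count tests listed for raw counts were not run, since the table holds none.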

Additional observations from a re-analysis of the deposited data

How the results depend on the processing

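SEPT2, SEPT7 and BMI1 kept their direction and call under all alternatives that tested them (limma, highest adjusted p = 0.0106, 0.0313 and 0.00799). A filter at a mean of 5 FPKM left only SEPT2 and SEPT9 among the members, so 1 was called higher. With no filter on low values SEPT3 (log2 fold change 0.27) and SEPT11 (0.42) were not called, and 3 septins were higher. SEPT3 was not called at a common total (0.28), one upper quartile (0.25) or by quantiles (0.21), while SEPT6 was called lower there (-0.38, -0.25 and -0.29), making 2, 2 and 3 septins lower, the last with SEPT8 (-0.18). A common total moved the median of all tested rows from -0.02 to -0.10. Removal of the GC content and length trend ended the calls of SEPT9 (-0.34), SEPT10 (0.20) and SEPT11 (0.25), turned SEPT8 (0.15), and left 3 septins higher and 0 lower. For the other losses the cause was not tested. Over all alternatives 23.4% (no filter) to 61.7% (filter at 5 FPKM) of rows were called. With 1 library left out, the log2 fold change ran from 0.18 to 0.34 for SEPT3, from 0.30 to 0.51 for SEPT11 and from -0.29 to -0.18 for SEPT6, with 3 to 4 septins higher and 1 to 2 lower. The replicate numbers did not pair the samples: deviations of same-numbered libraries correlated at 0.004, -0.079 and -0.023. No library correlated best with its own number. With the replicate block SEPT3 was not called (log2 fold change 0.27; limma, adjusted p = 0.0798), 4 septins were higher and 1 lower. The share of SEPT9 in the septin sum differed between Bmi1 shRNA and control by -22.7 to -19.4 percentage points with 1 library left out. Low septins such as SEPT6 and SEPT3 rest on few FPKM, and with depth unknown their counting error cannot be given.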
